A study of Mus musculus with 8 samples.

Results

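The Slit ligands, the Robo receptors and the srGAP proteins that act downstream of them were examined in dissected heart tissue, the right ventricle with its outflow tract (OFT/RV), of mouse embryos with lowered Isl1. The set held 8 genes, chosen by symbol, out of 20701 gene symbols in the deposited table: the ligands Slit1, Slit2 and Slit3, the receptors Robo1, Robo2 and Robo4, and the effectors Srgap1 and Srgap2. Each symbol was represented by its most highly counted transcript. Of the 8 genes, 7 had enough counts to enter the test over 13769 genes, and Slit1 did not.

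Polyadenylated RNA of single C57BL/6 embryos at stage E10.5 was sequenced, with 4 control embryos labelled wild type (CTRL) and 4 Isl1 hypomorphic embryos (Isl1_hypo). The study gives the genotype of its hypomorphic mice as Isl1 f;neo/f;neo, an allele carried in every cell of the embryo and not restricted to the heart. Isl1 is a LIM-homeodomain transcription factor of second heart field progenitors, which build the OFT and RV. Sex and litter of the embryos are not given in the sources used here, and because the dissected tissue was mixed, fewer cells of a type and less RNA per cell cannot be told apart.

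Slits are large secreted proteins that bind the immunoglobulin-like domains of Robo receptors on the cell surface, with heparan sulphate proteoglycans as co-factors. The signal acts through small GTPases that control the actin cytoskeleton, and srGAPs are GTPase-activating proteins that bind the cytoplasmic part of Robo. The pathway is best known for repelling axons at the midline, and in the embryonic heart it takes part in the formation of the chambers, the caval veins, the pericardium and the valves.

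Isl1, the gene that the allele targets, measured 29.6, 61.5, 46.2 and 51.3 CPM (counts scaled to library size) in CTRL and 12.7, 6.86, 7.71 and 11.4 CPM in Isl1_hypo. Every Isl1_hypo library lay below every CTRL library, and Isl1 fell by 2.29 on the log2 scale (adjusted p = 0.0077, SE 0.256, edgeR quasi-likelihood test). The call was lost with the replicate number as a block (-2.29, adjusted p = 0.0722) and with the globin level as a covariate (-2.38, adjusted p = 0.551), and the size of the difference was nearly the same in both. CTRL libraries held 29748458 to 46678973 counts, and Isl1_hypo libraries were somewhat shallower at 18422245 to 33050298. Myocardial markers summed to between 33374 and 41174 CPM in CTRL and between 35673 and 43608 CPM in Isl1_hypo, so the labelled heart tissue was present in all libraries. Blood, epicardial and epithelial markers were higher in Isl1_hypo. The summed CPM of blood genes ranged from 2023 to 11906 in CTRL and from 11888 to 25602 in Isl1_hypo, and that of epicardial genes from 45.7 to 265 and from 332 to 545. An unadjusted p under 0.05 in the higher direction, which 5.69% of all genes tested reached, was found for 4 of 4 epicardial genes, 8 of 9 blood genes and 3 of 3 tested epithelial genes (5 listed), and none of these passed the adjusted threshold (edgeR). CTRL replicate 1 and Isl1_hypo replicate 3 stood at opposite ends of the dependence of log2 CPM on transcript length, with slopes of 0.12 and -0.11 per doubling of length. Isl1_hypo replicate 3 also had the fewest genes detected (14305, against 14935 to 15207 in the other Isl1_hypo libraries).

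The genes encoding Slit2 and Slit3 each carry a microRNA in an intron, and both loci give the same mature miR-218-5p, a microRNA known to target Robo messages. In the mm9 build used by the authors, Slit2 spans chr5:48374394-48697521 on the plus strand, with Mir218-1 at chr5:48615181-48615290 in intron 16 of its annotated transcript with the most exons. Slit3 spans chr11:34934726-35522009 on the plus strand, with Mir218-2 at chr11:35430318-35430427 in intron 14 of the transcript chosen in the same way. Neither hairpin overlaps an annotated exon of its host. The mature sequences from RefSeq are shown because they link the ligand genes to the receptor genes, with the seed (bases 2 to 8) in capitals.
mmu-miR-218-5p: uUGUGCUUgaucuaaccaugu
mmu-miR-218-1-3p: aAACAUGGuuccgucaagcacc
mmu-miR-218-2-3p: cAUGGUUCugucaagcaccgcg
The 5p arm and its seed are shared by both loci, whereas the 3p arms carry different seeds. Mature microRNAs are not measured by exon counts of polyadenylated RNA, so their levels were not analysed here.

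The sequences ahead of the transcription starts of Slit3 and Slit2 are shown because these paralogs gave the largest and nearly the smallest difference of the set. They are the 250 bases before the RefSeq start on the plus strand of GRCm38.p6, at chr11:35121206-35121455 for Slit3 and chr5:47982905-47983154 for Slit2. Capitals mark CG dinucleotides.
Slit3: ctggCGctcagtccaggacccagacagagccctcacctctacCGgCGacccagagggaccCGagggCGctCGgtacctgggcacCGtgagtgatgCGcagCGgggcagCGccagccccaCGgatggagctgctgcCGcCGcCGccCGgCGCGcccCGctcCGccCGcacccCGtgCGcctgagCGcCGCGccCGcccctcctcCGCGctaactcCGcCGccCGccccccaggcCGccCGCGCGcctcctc
Slit2: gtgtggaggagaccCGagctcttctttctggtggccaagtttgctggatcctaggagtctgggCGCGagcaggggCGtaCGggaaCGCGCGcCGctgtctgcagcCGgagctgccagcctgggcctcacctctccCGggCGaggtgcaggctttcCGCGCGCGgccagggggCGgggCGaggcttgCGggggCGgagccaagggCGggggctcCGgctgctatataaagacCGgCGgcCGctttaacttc
Slit3 held 35 CG dinucleotides and Slit2 held 25, against a median of 6 over 32851 promoter windows of the same length. The letters TAAT, the core of many homeodomain sites, were searched on both strands and occur in 54.9% of all windows. They were in neither of these windows, and in 6 of the 9 windows that RefSeq gives for the set, at least 1 for each of Robo1, Robo2, Robo4, Srgap1 and Srgap2. The letters TATAAA occur in 12.4% of all windows and were found for Slit2 and not for Slit3. RefSeq gave windows for 7 of the 8 genes, and Slit1 had none.

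Compared per length as RPKM (CPM divided by transcript length in kilobases), Slit3 had the highest level of the set in CTRL at 6.35 ± 1.05 (SD, n = 4). Robo1 followed at 5.08 ± 0.766 RPKM, Srgap2 at 4.83 ± 0.94, Slit2 at 4.33 ± 0.986 and Robo2 at 3.78 ± 1.93. Srgap1 had 2.15 ± 0.476 RPKM, Robo4 1.498 ± 0.304 and Slit1 0.0224 ± 0.0328. Neighbours in this order differed by less than the larger of their SDs, apart from Slit3 above Robo1, Srgap1 above Robo4, and Robo4 above Slit1. The Slit3 and Robo1 libraries nevertheless overlapped, as did those of Srgap1 and Robo4. In Isl1_hypo, Slit3 was at 3.32 ± 1.16 RPKM, below Srgap2 at 4.65 ± 0.607, Robo1 at 4.64 ± 0.605 and Slit2 at 4.09 ± 0.812.

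**Figure D1:**
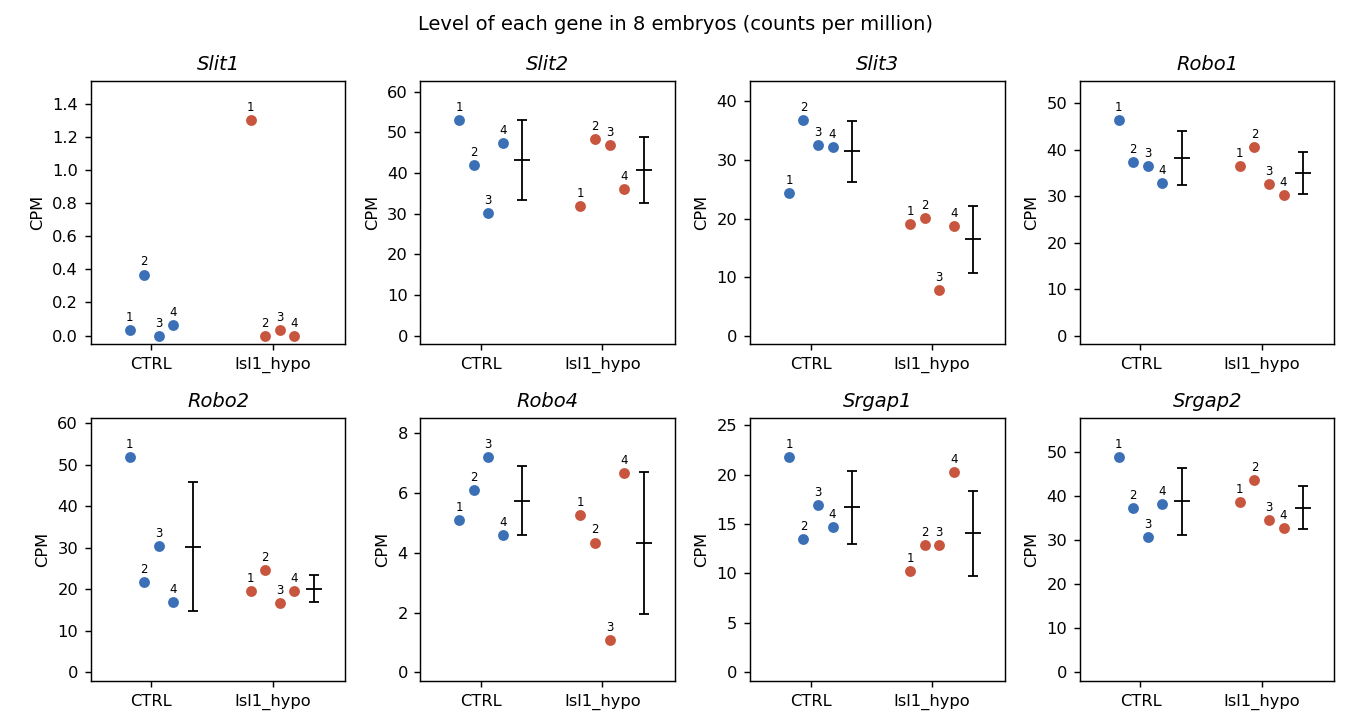
Depth-scaled counts (CPM, linear axis) of the 8 genes in each embryo, numbered by replicate, with CTRL in blue and Isl1_hypo in red; the black bar gives mean ± SD over 4 embryos, and none is drawn for Slit1. The groups are separate for Slit3, where CTRL lies between 24.3 and 36.9 CPM and Isl1_hypo between 7.84 and 20.2 CPM, and overlap for the other 7 genes.

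Slit3 showed the largest difference between the groups. It measured 24.3, 36.9, 32.5 and 32.3 CPM in CTRL and 19.1, 20.2, 7.84 and 18.7 CPM in Isl1_hypo, so that all 4 Isl1_hypo libraries lay below all 4 CTRL libraries. The Isl1_hypo mean of 16.4 ± 5.77 CPM was 52.2% of the CTRL mean of 31.5 ± 5.22 CPM (SD, n = 4). The log2 fold change was -0.94 (SE 0.262, 95% interval -1.51 to -0.37), with an unadjusted p of 0.00398 and an adjusted p of 0.201 by the edgeR quasi-likelihood test, which did not pass the threshold of 0.05. DESeq2, the tool of the study, gave the same difference with an adjusted p of 0.0259, and limma-voom with sample quality weights gave -0.82 with an adjusted p of 0.0493; these tools called 2.32% and 0.944% of all genes tested. Whether Slit3 is called therefore depended on the test, while its direction was the same in all 20 alternatives. Those on the choice of transcript could not change the Slit3 counts, because it has 1 annotated transcript. The setting without CTRL replicate 1 and Isl1_hypo replicate 3 together was chosen after the data were seen.

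Isl1_hypo replicate 3 held the lowest Slit3 value, 7.84 CPM from 248 counts, and without it the difference was -0.71 (unadjusted p = 0.000776, adjusted p = 0.0931, edgeR). This library also had the lowest summed level of mesenchymal markers (950 CPM, against 1131 to 2609 CPM in the other Isl1_hypo libraries and 1564 to 2548 CPM in CTRL) and the highest of blood genes. Of these mesenchymal markers, only Col1a1 (230 CPM) and Col3a1 (291 CPM) were lowest in it among the Isl1_hypo libraries. Twist1 (9.99 CPM) and Pdgfra (65.7 CPM) were highest there in that group, and the rest lay in between. Of the 7 mesenchymal markers, 6 had a negative fold change (6762 of 13769 over all genes) and 2 an unadjusted p under 0.05 in that direction (6.17% of all genes), with a median of -0.38. A fit that included the globin level gave a Slit3 difference of -0.73 with an unadjusted p of 0.0917 (edgeR). The part of these cell types in the Slit3 difference was not tested further.

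Slit2, the other ligand expressed in the tissue, measured 53.1, 41.8, 30.1 and 47.5 CPM in CTRL and 31.8, 48.3, 46.9 and 36.0 CPM in Isl1_hypo. The groups overlapped throughout their range, and the log2 fold change was -0.08 (SE 0.193, 95% interval -0.50 to 0.34, adjusted p = 0.9, edgeR), a sign that turned when CTRL replicate 1 (0.0307) or Isl1_hypo replicate 1 (0.0201) was left out. The 4 annotated Slit2 transcripts shared nearly all of their reads, with mean counts between 99.0% and 99.5% of the one used.

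Slit1, known mainly from the nervous system, was at or near 0 in most libraries. Its counts were 1, 15, 0 and 3 in CTRL and 24, 0, 1 and 0 in Isl1_hypo. The highest value, 1.30 CPM, came from Isl1_hypo replicate 1, which also held 15.3 CPM of Cdh1 and 38.5 CPM of Cldn6, both epithelial genes, against at most 0.311 and 0.199 CPM in the other libraries. This pair was picked from the 5 listed epithelial markers after their values were seen. The whole list summed to 296 CPM in that library. It summed to 192 and 177 CPM in Isl1_hypo replicates 3 and 4, with 1 and 0 Slit1 counts, and to 115 CPM in CTRL replicate 2, with 15. The part of epithelial tissue in the Slit1 counts was not tested. A count of 0 allows up to 0.0745 CPM in CTRL replicate 3, and up to 0.112 and 0.104 CPM in Isl1_hypo replicates 2 and 4, for counting error only.

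Within each embryo the balance of the ligands was read as the log2 ratio of Slit3 to Slit2 RPKM. It was -0.12, 0.82, 1.12 and 0.45 in CTRL and 0.27, -0.25, -1.57 and 0.06 in Isl1_hypo. Slit3 exceeded Slit2 in 3 of 4 CTRL embryos and in 2 of 4 Isl1_hypo embryos. The mean ratio was 0.57 ± 0.53 in CTRL and -0.37 ± 0.83 in Isl1_hypo, and the groups overlapped. Their difference of -0.94 was -0.54 without Isl1_hypo replicate 3. The summed RPKM of the ligands, which carries the Slit3 difference, was 10.7 ± 0.97 in CTRL and 7.47 ± 1.08 in Isl1_hypo, without overlap. The sums of the receptors (10.35 ± 2.67 and 8.28 ± 1.21) and of the effectors (6.98 ± 1.31 and 6.47 ± 0.527) overlapped between the groups.

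**Figure D2:**
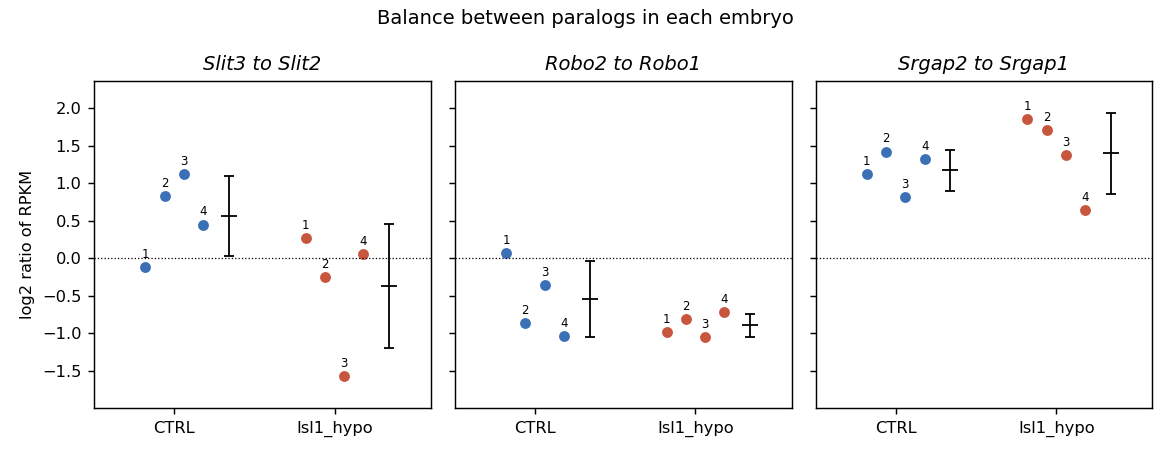
Log2 ratio of RPKM between paralogs in each embryo, numbered by replicate, with mean ± SD (black, n = 4) and a dotted line at equal levels. The Slit3 to Slit2 ratio has a lower mean in Isl1_hypo with replicate 3 lowest at -1.57, and in all 3 panels the groups overlap.

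Among the receptors, Robo1, the main Slit receptor outside the vasculature together with Robo2, differed little. It measured 46.5, 37.3, 36.5 and 32.9 CPM in CTRL and 36.4, 40.6, 32.6 and 30.2 CPM in Isl1_hypo. The log2 fold change was -0.13 (SE 0.147, 95% interval -0.45 to 0.19, adjusted p = 0.756, edgeR), and it was 0.18 in the fit that included the globin level.

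Robo2 measured 52.0, 21.8, 30.4 and 17.0 CPM in CTRL and 19.6, 24.6, 16.8 and 19.5 CPM in Isl1_hypo. CTRL replicate 1 lay far above the other CTRL libraries, whose range from 17.0 to 30.4 CPM overlapped that of Isl1_hypo, and the CTRL values varied more (CV 51.1%) than those of Isl1_hypo (CV 16.3%). The log2 fold change was -0.59 (SE 0.295, 95% interval -1.23 to 0.06, adjusted p = 0.466, edgeR), and without CTRL replicate 1 it was -0.20. It was -0.79 without CTRL replicate 4 (unadjusted p = 0.014, edgeR) and -0.72 without CTRL replicate 2 (unadjusted p = 0.0415, edgeR), and DESeq2 gave an unadjusted p of 0.0443 over all 8 libraries, while limma-voom gave -0.25 (unadjusted p = 0.347). It turned to 0.36 in the fit that included the globin level. The log2 ratio of Robo2 to Robo1 averaged -0.55 ± 0.50 in CTRL and -0.89 ± 0.15 in Isl1_hypo, with overlap, and the difference of -0.35 was -0.14 without CTRL replicate 1.

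Robo4, a receptor of endothelial cells, was the lowest of the 3 receptors. It measured 5.09, 6.10, 7.23 and 4.60 CPM in CTRL and 5.27, 4.35, 1.07 and 6.68 CPM in Isl1_hypo, with Isl1_hypo replicate 3 far below the others. The log2 fold change was -0.41 (SE 0.434, 95% interval -1.36 to 0.54, adjusted p = 0.736, edgeR), without that library it was -0.08, and with the globin level in the fit it was 0.13. Endothelial markers summed to between 713 and 825 CPM in CTRL and between 535 and 702 CPM in Isl1_hypo, and 8 of the 9 markers had a negative fold change, 3 with an unadjusted p under 0.05 (median -0.29), against 6.17% of all genes in that direction. Set against the mean log2 CPM of these markers in the same library, Robo4 was at -3.31 ± 0.36 in CTRL and -3.53 ± 0.96 in Isl1_hypo. The difference of -0.22 had p = 0.743 in an exact 2-sided permutation test, in which 4 against 4 libraries can reach 0.0286 at the lowest. It was 0.20 without Isl1_hypo replicate 3 (exact permutation p = 0.571), -0.57 without Isl1_hypo replicate 4, -0.35 without CTRL replicate 4 and -0.0661 without CTRL replicate 3. With the 3 endocardial markers added to the list, of which 2 had a positive fold change (median 0.28), it was -0.37 (exact permutation p = 0.629).

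**Figure D3:**
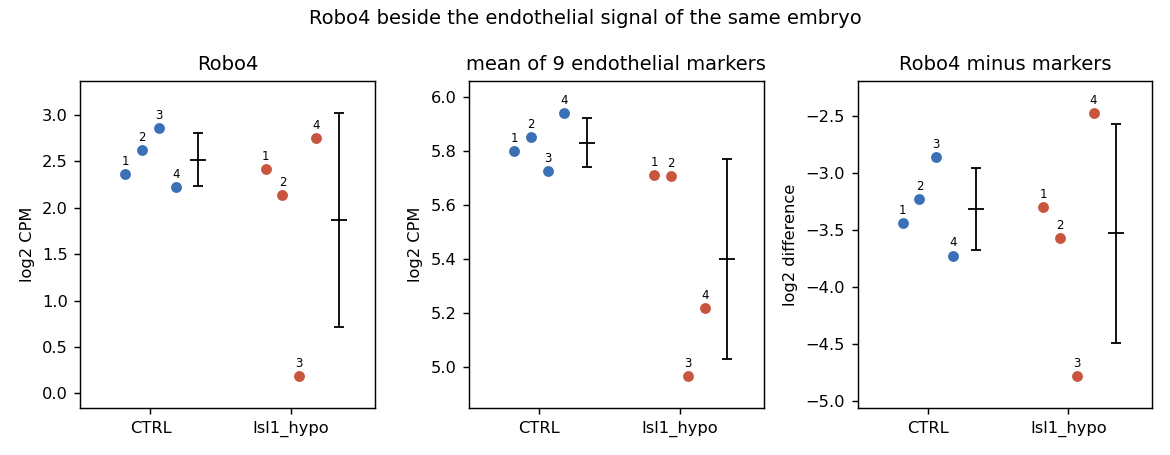
Robo4 (left, log2 CPM), the mean of 9 endothelial markers (middle, log2 CPM) and their difference (right, log2) in each embryo, numbered by replicate, with mean ± SD (black, n = 4). Isl1_hypo replicate 3 is lowest in every panel, and the groups overlap for Robo4 and for the difference.

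Neither effector passed the test. Srgap1 measured 21.8, 13.4, 16.9 and 14.7 CPM in CTRL and 10.3, 12.9, 12.8 and 20.2 CPM in Isl1_hypo, with 3 of 4 Isl1_hypo libraries below every CTRL library. Its log2 fold change was -0.25 (SE 0.229, 95% interval -0.75 to 0.26, adjusted p = 0.698, edgeR). It was -0.48 without Isl1_hypo replicate 4 (unadjusted p = 0.0448, edgeR), -0.0957 without CTRL replicate 1, -0.12 without Isl1_hypo replicate 1 and -0.0291 in the fit that included the globin level. Srgap2 measured 48.9, 37.2, 30.7 and 38.0 CPM in CTRL and 38.5, 43.6, 34.5 and 32.7 CPM in Isl1_hypo. Its log2 fold change was -0.05 (SE 0.16, 95% interval -0.40 to 0.30, adjusted p = 0.925, edgeR), and it turned to 0.16 in the fit that included the globin level. The log2 ratio of Srgap2 to Srgap1 was above 0 in all 8 embryos, at 1.17 ± 0.27 in CTRL and 1.40 ± 0.54 in Isl1_hypo. The difference of 0.23 ranged from 0.0737 without Isl1_hypo replicate 1 to 0.48 without Isl1_hypo replicate 4.

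Read together, 7 of the 7 tested genes had a negative fold change, with a median of -0.25, where 6762 of 13769 genes were lower and the median of all genes was 0.01. The signs depended on the processing: 3 of 7 genes were lower in the fit that included the globin level, and 4 of 7 once the length dependence of every library was removed. In the globin fit Robo2 turned from -0.59 to 0.36 and Robo4 from -0.41 to 0.13, and Robo1 and Srgap2 turned too. Slit2, Slit3 and Srgap1 kept their sign. That fit cannot separate globin from genotype, and it left 0 of all genes called. None of the 7 had an adjusted p under 0.05 by edgeR, against 0.269% of all genes tested, and 1 did by DESeq2, which called 2.32% of all genes; an unadjusted p under 0.05 was reached by Slit3 and Robo2, 2 of the 7, with DESeq2, against 13.2% of all genes. By edgeR, Slit3 alone had an unadjusted p under 0.05, which 6.17% of all genes reached in the lower direction, and it alone had groups without overlap, as did 4.44% of all genes in that direction.

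**Figure D4:**
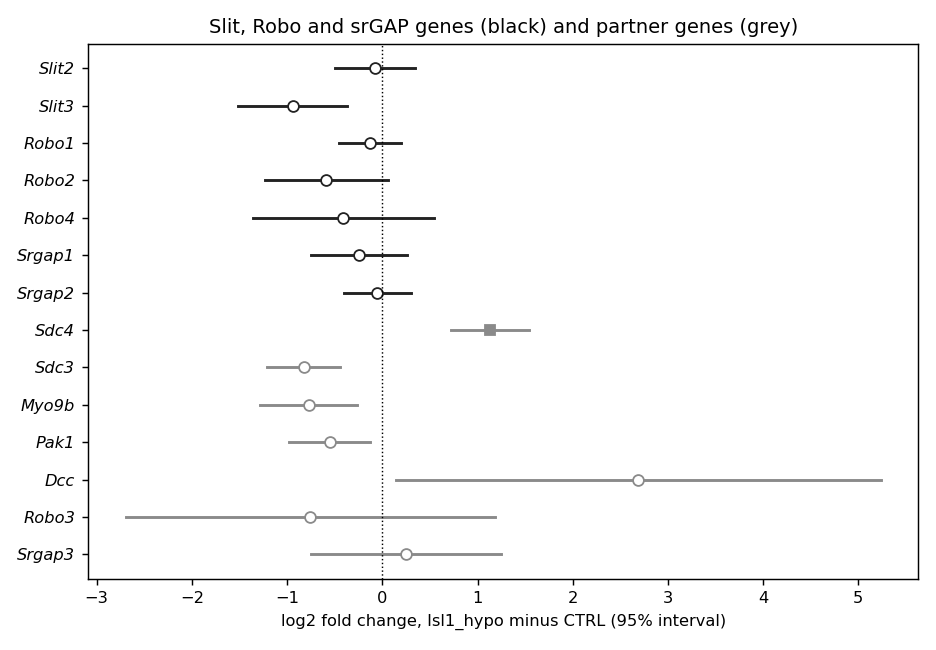
Log2 fold change (Isl1_hypo minus CTRL) with its 95% interval for the 7 tested genes of the set (black) and 7 partner genes (grey); a filled square marks an adjusted p under 0.05 and an open circle any other value. The interval of Slit3, from -1.51 to -0.37, lies below 0, while those of the other 6 genes of the set include 0.

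The other genes of the pathway were read from a list of 39 genes, all of which were tested: co-receptors, heparan sulphate enzymes, adaptors, GTPases and trafficking proteins, and the remaining family members Robo3 and Srgap3. Of these, 24 had a negative and 15 a positive fold change, with a median of -0.13. An adjusted p under 0.05 was reached by 1 gene, against 0.269% of all genes, and an unadjusted p under 0.05 by 3 genes in the lower direction and 2 in the higher, against 6.17% and 5.69% of all genes. Groups did not overlap for 1 lower and 2 higher genes, against 4.44% and 4.06% of all genes.

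Syndecans are cell-surface proteoglycans that carry heparan sulphate, and Sdc4 was the member of this family that passed the test. It measured 36.9, 43.2, 40.4 and 58.4 CPM in CTRL and 99.7, 103, 121 and 68.6 CPM in Isl1_hypo. All Isl1_hypo libraries lay above all CTRL libraries, and Sdc4 rose by 1.13 on the log2 scale (SE 0.187, adjusted p = 0.0358, edgeR). The call was lost when any 1 of 5 libraries was left out (CTRL replicates 1, 2 and 3 and Isl1_hypo replicates 1 and 2), with adjusted p from 0.0626 to 0.129 and log2 fold changes from 1.04 to 1.12. It was also lost with the replicate number as a block (adjusted p = 0.123, edgeR) and with the globin covariate, where the difference was 0.68 (adjusted p = 1.0, edgeR).

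Sdc3, the syndecan of neural and muscle tissue, measured 58.8, 43.4, 53.1 and 42.6 CPM in CTRL and 26.9, 32.3, 20.04 and 32.3 CPM in Isl1_hypo. Every Isl1_hypo value was again outside the CTRL range, here below it, and the log2 fold change was -0.83 (95% interval -1.21 to -0.44, adjusted p = 0.0927, edgeR). DESeq2 gave an adjusted p of 0.00141 and limma-voom one of 0.0444, while the difference was -0.49 in the fit that included the globin level (unadjusted p = 0.0835, edgeR). Neuronal markers summed to between 48.0 and 73.0 CPM in CTRL and between 26.4 and 49.5 CPM in Isl1_hypo, lowest in Isl1_hypo replicate 3, which was also lowest for Sdc3. Of the 5 listed, 2 were tested, both with a negative fold change (median -0.53) and 1 with an unadjusted p under 0.05, against 6.17% of all genes, and their part in the Sdc3 difference was not tested. Sdc1 and Sdc2 differed by 0.12 and -0.11, with adjusted p of 0.763 and 0.703 (edgeR).

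Of the cytoplasmic partners, Myo9b, a myosin with a GTPase-activating domain, had 26.8 ± 5.86 CPM in CTRL and 15.6 ± 4.55 CPM in Isl1_hypo, a log2 difference of -0.78 (adjusted p = 0.233, edgeR). The kinase Pak1, an effector of Rac and Cdc42, had 17.6 ± 3.99 CPM in CTRL and 12.0 ± 1.57 CPM in Isl1_hypo, a log2 difference of -0.55 (adjusted p = 0.303, edgeR). In the fit that included the globin level, Myo9b was at -0.49 (unadjusted p = 0.184, edgeR) and Pak1 at -0.32 (unadjusted p = 0.35, edgeR). The small GTPases Rac1, Cdc42 and Rhoa differed by 0.02 to 0.08 on the log2 scale. Dcc, the netrin receptor, was scarce, with 10, 9, 0 and 10 counts in CTRL and 18, 54, 0 and 55 in Isl1_hypo (log2 fold change 2.69, SE 1.16, adjusted p = 0.395, edgeR). Robo3 averaged 0.313 ± 0.128 CPM in CTRL and 0.176 ± 0.175 CPM in Isl1_hypo, and Srgap3 1.47 ± 0.543 and 1.77 ± 0.693 CPM. Neither passed the test, with log2 fold changes of -0.76 and 0.25 (adjusted p = 0.766 and 0.861, edgeR). Robo3 was at -1.57 without Isl1_hypo replicate 3 and at -0.41 without Isl1_hypo replicate 1.

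**Figure D5:**
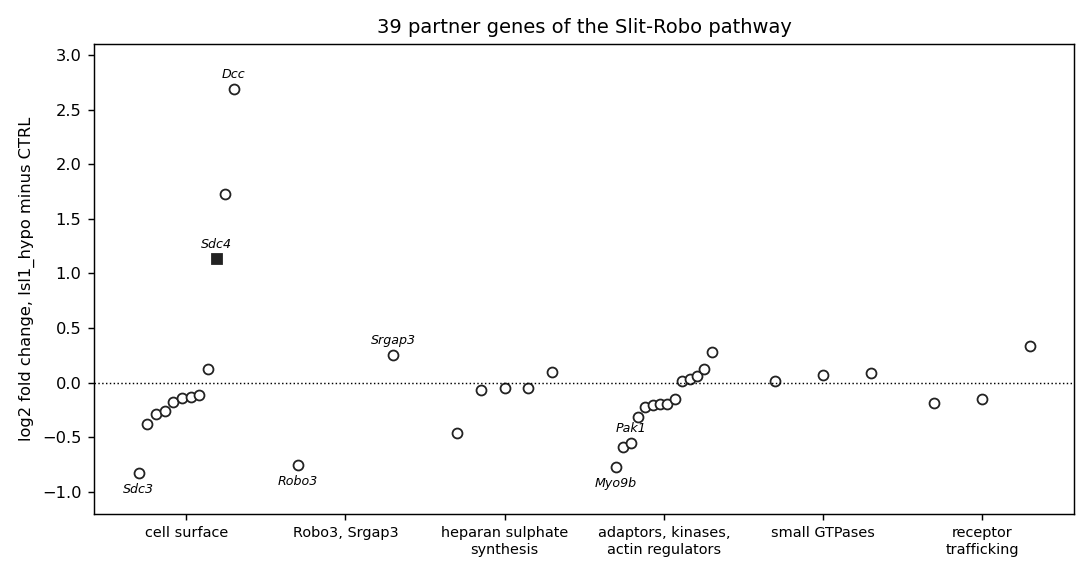
Log2 fold change (Isl1_hypo minus CTRL) of 39 partner genes by role, each point 1 gene; a filled square marks an adjusted p under 0.05. Sdc4 is the filled point at 1.13, Sdc3 is lowest among the surface proteins at -0.83, and the small GTPases lie near 0.

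The genes whose pattern over the 8 libraries was most like each of the set were sought among 10744 genes with at least 5 CPM, by Pearson's r of log2 CPM, as a description over libraries that share scaling and depth. The genes named are the highest of many correlations over few libraries, so a high r can come from the search itself, and none was tested. Slit3 was followed most closely by Scaf1 (r = 0.98), Nrp2 (0.976), a receptor for class 3 semaphorins and VEGF, and Ptprg (0.972), a receptor tyrosine phosphatase. Their log2 fold changes were -0.62, -0.66 and -0.33, so these r values include the difference between the groups. Slit2 was closest to Nfib (0.937), a nuclear factor I transcription factor, Zc3hav1l (0.914) and Tnrc6c (0.897). Robo1 was closest to Rab6a (0.99), Dync1li2 (0.947) and Grb10 (0.945), and Robo2 to Ccdc137 (0.98), Fbxo9 (0.979) and Lrrfip1 (0.979). Robo4 was closest to Ubap2 (0.991), Tril (0.987) and Lrp12 (0.986), none of which is on the list of endothelial markers. Srgap1 was closest to Phc1 (0.954), Tgm4 (0.953) and Otud5 (0.943), and Srgap2 to Herc6 (0.972), Dtx3l (0.965) and Fhl2 (0.959).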

How the data were processed

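Per the labels and the study's methods, the authors aligned reads (BGISEQ-500) to mm9 with STAR and counted exon reads of each RefSeq transcript without regard to strand with HOMER. Versions are not given in the sources used here. The deposited counts are whole numbers and not normalized, and the deposited RPKM values, made by the authors with edgeR, were not used. The length column was used for RPKM computed from the counts. The 6 columns of the authors' DESeq2 comparison, holding fold changes and p-values, were not used. No exon of the 8 genes overlaps an exon of another gene in the annotation.

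Of 31507 transcripts, the one with the highest mean count was kept per symbol. After filterByExpr and TMM scaling, edgeR 4.0.16 (R 4.3.3, limma 3.58.1) tested Isl1_hypo against CTRL by quasi-likelihood with no covariate, and Benjamini-Hochberg adjustment ran over 13769 genes. The SE is the log2 fold change divided by the square root of F. CPM used TMM-scaled totals, with a prior count of 2 on the log2 scale. The scripts were tested on simulated data. DESeq2 1.42.0 was an alternative. Figures were drawn with matplotlib 3.10.9. Detection limits are 3 counts.

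Genes and lists were chosen with earlier results of these data known. The text names Isl1, the 8 genes, partner genes with an adjusted p under 0.05 or among the 5 smallest unadjusted p, Robo3 and Srgap3, and the 3 genes most like each tested gene. Other genes (Cdh1, Cldn6, Col1a1, Col3a1, Twist1, Pdgfra, Sdc1, Sdc2, Rac1, Cdc42, Rhoa) were named after their values were seen. Embryos are separate animals, and replicate numbers are only shared between groups.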

Additional observations from a re-analysis of the deposited data

Results flagged for a closer look

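Of 36 groups of 4 libraries examined for a library far from the other 3, 2 held one, where chance gives about 1.8. Slit3 in Isl1_hypo replicate 3 was at 2.98 log2 CPM, and the other 3 Isl1_hypo libraries lay between 4.23 and 4.34. Robo3 in CTRL replicate 3 was at -2.44 log2 CPM from 5 counts, and the other 3 CTRL libraries lay between -1.28 and -1.10.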

How the results depend on the processing

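Slit3 kept its direction in all 20 alternatives (log2 fold change -1.06 to -0.71) and passed the threshold with DESeq2 (-0.94), with limma-voom (-0.82), and without CTRL replicate 1 and Isl1_hypo replicate 3 together (-0.81, adjusted p = 0.0296, edgeR). That last setting was chosen after seeing the data, its first library was picked for its high Robo2 value and its second for its low Slit3 value, and it supports nothing. In it no partner gene was called (0), Robo1 was at 0.0077, Srgap2 at 0.11, Sdc4 at 0.93 without its call, and Robo4 relative to endothelial markers at 0.16. With DESeq2 and with limma-voom, 1 of the 7 tested genes and 2 partner genes had an adjusted p under 0.05, and 319 and 130 of all genes against 37 by edgeR. At an unadjusted p under 0.05, DESeq2 had 2 of the 7, with 1817 of all genes (13.2%) against 1633 by edgeR, and the globin covariate had 0. The globin covariate left 3 of 7 genes lower, with Robo1 at 0.18, Robo2 at 0.36, Robo4 at 0.13 and Srgap2 at 0.16; it also left 0 partner genes and 0 of all genes called (513 at an unadjusted p under 0.05), with Isl1 at -2.38 (adjusted p = 0.551). Removal of the length trend left 4 of 7 lower, with Slit2 at 0.11, Robo1 at 0.00737 and Srgap2 at 0.0942, and Srgap2 was at 0.0774 with limma-voom. With the replicate number as a replicate block, 0 genes had an adjusted p under 0.05 (1582 at an unadjusted p under 0.05), so 0 partner genes were called, Isl1 was at -2.29 (adjusted p = 0.0722), Sdc4 at 1.13 (adjusted p = 0.123) and Slit3 at -1.004 (adjusted p = 0.227). The numbers did not pair the embryos: same-numbered libraries correlated at -0.021 to 0.022, and 2 of 8 libraries were closest to their own number. Leaving out 1 library at a time gave log2 fold changes of -2.46 to -2.14 for Isl1, -0.22 to 0.0307 for Slit2, -1.06 to -0.71 for Slit3, -0.22 to -0.03 for Robo1, -0.79 to -0.20 for Robo2, -0.70 to -0.08 for Robo4, -0.48 to -0.10 for Srgap1, -0.15 to 0.0741 for Srgap2 and -0.0457 to 0.49 for Srgap3, and -0.57 to 0.20 for Robo4 relative to endothelial markers. It gave 0 of the 7 genes with an adjusted p under 0.05, 1 to 2 with an unadjusted one, 5 to 7 lower, 0 to 1 partner genes called, and 4 to 48 of all genes called. The cause of these changes was not tested. Depth limits Slit1, Dcc and Robo3, which had few counts.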
